A study of Mus musculus with 12 samples.

Results

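The genes described here are 10 members of the Notch pathway, chosen by name: the receptors Notch1, Notch2 and Notch3, the ligands Jag1, Jag2, Dll1 and Dll4, the targets Hes1 and Nrarp, and Lfng, an enzyme that modifies the receptors. They are 10 of the 25514 genes that could be matched in the count data, and 9 of the 10 passed the filter on low counts that left 12971 genes to test. Dll4 did not pass. RNA was sequenced from mouse proximal tubule (PT) cells, a conditionally immortalized line made from the kidneys of male mice that carried both the Immorto-mouse T antigen (H2ts6 in the labels) and floxed alleles of Tgfbr2, the gene of the type II TGF-β receptor (TβRII). TβRII-/- PT cells were derived from the TβRIIflox/flox PT cells by adenoviral Cre in culture, so each genotype is 1 cell line, and the effect of the deletion cannot be told apart from other differences between the lines. Cells were grown at 33 °C with interferon-γ and moved to 37 °C without it 5 days before the experiment, and this holds for every group. There were 4 groups of 3 libraries: TβRIIflox/flox and TβRII-/- PT cells left untreated in normal culture medium, which contains 2.5% serum, and both genotypes given H2O2 in serum-free medium for 24 h. The labels give the H2O2 dose as 200 mM and the study's methods give 200 µM. The methods also describe serum starvation before H2O2, so the effects of H2O2 and of serum withdrawal cannot be told apart.

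Notch signaling passes between neighbouring cells. A ligand of the Jagged or Delta-like family on a cell surface binds a Notch receptor on the adjacent cell, ADAM proteases and then γ-secretase cut the receptor, and the freed intracellular domain moves to the nucleus, where it joins RBPJ and Mastermind-like proteins on target genes. Fringe enzymes such as Lfng add sugar to the extracellular domain of the receptor and thereby shift its response between Delta-like and Jagged ligands. In the kidney the pathway patterns the proximal nephron during development, is low in mature tubules, and is active again in injured tubules.

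The 12 libraries held between 15870155 and 20857618 counts on the transcript used for each gene. The 3 libraries of each group differed by more than sampling noise, and the labels do not say that they came from separate cultures. The methods state in general that experiments in culture had independent repeats, without naming these libraries, so the p-values measure the spread between these libraries, part of which may be technical. Tgfbr2 itself ranged from 7562 to 9248 normalized counts in untreated TβRIIflox/flox and from 6358 to 6782 in untreated TβRII-/- PT cells. With H2O2 it ranged from 13280 to 13920 in TβRIIflox/flox and from 7116 to 7311 in TβRII-/- PT cells. Counts over a whole transcript cannot show whether a floxed exon was lost, so they do not check the genotype labels. Of 14 proximal tubule markers, 6 had at most 3 counts in every library (Slc34a1, Slc22a6, Slc22a8, Slc27a2, Hnf4a and Kap). The endocytic receptor Lrp2 lay between 15560 and 20340 normalized counts in untreated TβRIIflox/flox and between 10550 and 11410 in untreated TβRII-/- PT cells. The summed proximal tubule list lay between 22030 and 28010 in the former and between 15070 and 16100 in the latter. The epithelial cadherin Cdh1 lay between 1.05 and 3.23 in untreated TβRIIflox/flox and between 1046 and 1171 in untreated TβRII-/- PT cells, and the summed fibroblast and mural cell list, most of it Postn, lay between 5583 and 6933 against 187.6 to 241.6. The summed renal epithelial list lay between 21000 and 22540 against 39890 to 43090, and the podocyte list between 266.0 and 299.8 against 714.1 to 742.5. These markers moved with genotype, as did many of the Notch genes below, and their part in those results was not tested.

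The first question was how the Notch genes differed between untreated TβRII-/- and TβRIIflox/flox PT cells. The ligands moved in opposite directions. Jag1 was 3.94-fold lower in TβRII-/- cells, whereas Jag2 was 6.99-fold and Dll1 7.68-fold higher. The target Nrarp was 26.0-fold higher, the target Hes1 was 1.28-fold lower and Lfng was 3.42-fold lower. Of the 9 genes tested, 5 rose (Notch1, Notch3, Jag2, Dll1 and Nrarp) and 4 fell (Notch2, Jag1, Hes1 and Lfng) by the quasi-likelihood F test of edgeR, with a threshold of 0.05 on p after Benjamini-Hochberg correction across the 12971 genes. In the same comparison 33.3% of all genes tested rose and 31.4% fell, so calls were common. The median absolute log2 fold change was 1.77 over the 9 genes and 0.34 over all genes. The 9 genes were chosen with earlier results of these data known, so the gap between these medians is a description and not a test. With H2O2, 4 of the 9 rose and 3 fell in TβRII-/- against TβRIIflox/flox cells, where 35.1% of all genes rose and 31.3% fell. In these bulk cultures, fewer cells expressing a gene and less RNA per cell cannot be told apart.

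**Figure D1:**
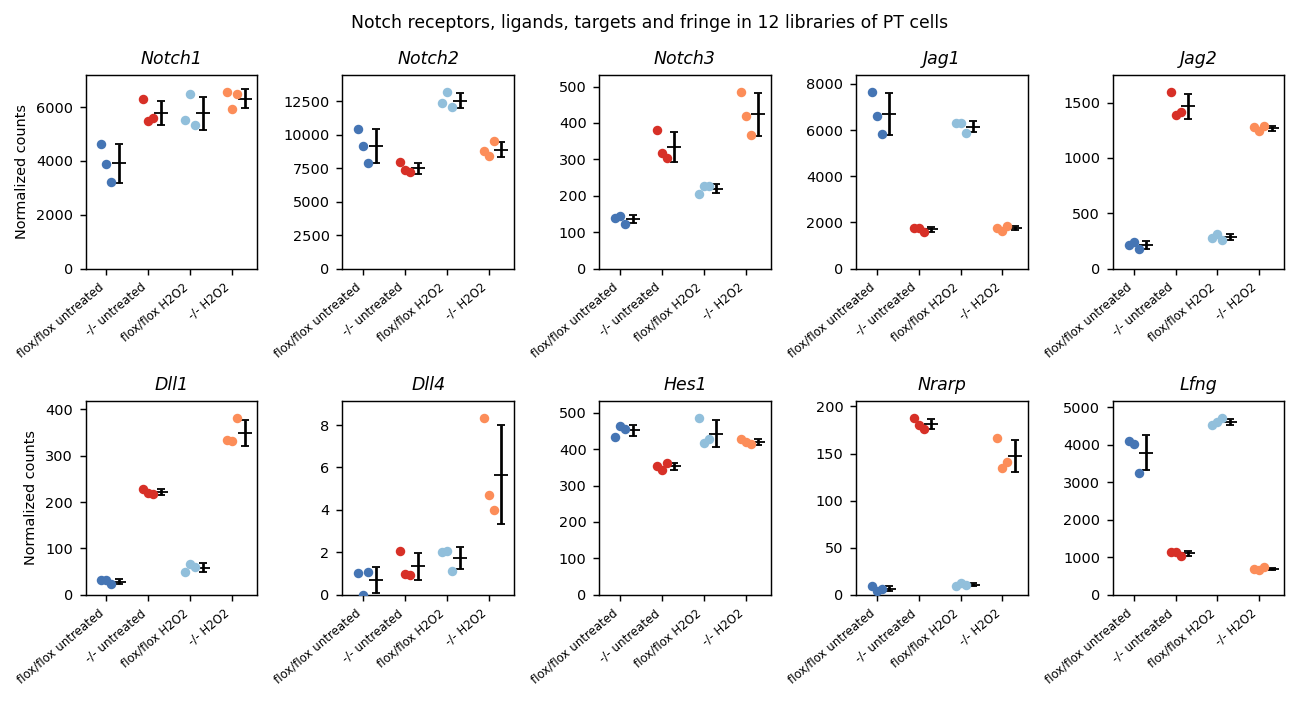
Normalized counts (vertical axes, linear from 0, a separate scale per gene) of the 10 Notch genes in each of 12 libraries; points are libraries, horizontal bars are means of 3 and whiskers are SD. The untreated TβRII-/- libraries of Nrarp lie between 176.1 and 187.2 against 4.45 to 9.47 in untreated TβRIIflox/flox cells, while Jag1 and Lfng show the opposite order.

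Among the receptors, Notch1 (chr2:26457902-26503822; coordinates here are from RefSeq, build GRCm38.p6) had 4631, 3886 and 3205 normalized counts in the untreated TβRIIflox/flox libraries and 6305, 5492 and 5578 in the untreated TβRII-/- libraries. Normalized counts are counts scaled to a common library size of 17351835. All 3 TβRII-/- libraries were above all 3 TβRIIflox/flox libraries, and the log2 fold change was 0.57 ± 0.09 (SE, n = 3 per group; edgeR adjusted p = 1.36e-06). With H2O2 the values were 5518, 6474 and 5328 in TβRIIflox/flox and 6556, 5913 and 6480 in TβRII-/- libraries. Here the groups overlapped, and the log2 fold change of 0.13 had a 95% interval from -0.05 to 0.31 (edgeR adjusted p = 0.194). The 10 other annotated Notch1 transcripts were all higher in untreated TβRII-/- cells, but only 3 of them were higher with H2O2. Reads were counted on several transcripts of a gene, so other transcripts, here and for the genes below, are not independent of the counted one.

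Notch2 (chr3:98013538-98150367), the receptor with the highest level per transcript length, went the other way. It had 10410, 9120 and 7862 normalized counts in untreated TβRIIflox/flox and 7966, 7333 and 7178 in untreated TβRII-/- libraries. The groups overlapped by the lowest TβRIIflox/flox library, and the log2 fold change was -0.29 ± 0.08 (edgeR adjusted p = 0.00155). With H2O2, Notch2 had 12330, 13160 and 12090 in TβRIIflox/flox and 8773, 8379 and 9496 in TβRII-/- libraries, without overlap, and fell by 0.50 on the log2 scale (edgeR adjusted p = 9.13e-07). A same-strand gene model, Gm42820, overlaps 541 of the 10554 bases of the Notch2 transcript and had between 184 and 389 counts per library, far below Notch2.

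Notch3 (chr17:32120820-32166896), a receptor best known from vascular smooth muscle, was rare but higher in TβRII-/- cells. Its libraries had 138.9, 144.7 and 123.7 normalized counts in untreated TβRIIflox/flox and 381.7, 318.5 and 304.4 in untreated TβRII-/- cells. No library overlapped, and the rise was 2.46-fold (edgeR adjusted p = 1.97e-11). With H2O2 the values were 204.9, 227.3 and 226.9 against 484.6, 419.1 and 367.9, a rise of 1.93-fold (edgeR adjusted p = 1.64e-09).

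Scaled by transcript length, Notch2 made up 67.0% ± 0.9 (SD, n = 3) of receptor counts per kb in untreated TβRIIflox/flox cells and 52.2% ± 0.7 in untreated TβRII-/- cells. The share of Notch1 was 31.7% ± 1.0 in the former and 44.8% ± 0.6 in the latter, and that of Notch3 was 1.31% ± 0.14 and 3.04% ± 0.17. Summed over the 3 receptors, the level per kb was 1294 ± 197 in untreated TβRIIflox/flox and 1362 ± 91 in untreated TβRII-/- cells. The sums of the 2 groups overlapped, from 1098 to 1491 in the former and from 1306 to 1467 in the latter.

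Jag1 (chr2:137081451-137116520), a Jagged ligand, was abundant in TβRIIflox/flox cells, with 7641, 6625 and 5829 normalized counts when untreated and 6287, 6312 and 5857 with H2O2. TβRII-/- libraries had 1747, 1770 and 1588 when untreated and 1757, 1647 and 1833 with H2O2. Every TβRII-/- library was below every TβRIIflox/flox library in both media. The log2 fold change between genotypes was -1.98 ± 0.08 untreated (edgeR adjusted p = 5.03e-21) and -1.82 ± 0.08 with H2O2 (edgeR adjusted p = 3.94e-20).

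Jag2 (chr12:112907803-112929812), the other Jagged ligand, showed the opposite order. Untreated TβRIIflox/flox libraries had 210.4, 244.8 and 174.2 normalized counts and untreated TβRII-/- libraries 1594, 1388 and 1416. With H2O2 they had 278.0, 312.0 and 262.4 in the former and 1278, 1244 and 1287 in the latter. The genotypes did not overlap in either medium, and the log2 fold change was 2.81 ± 0.09 untreated (edgeR adjusted p = 2.60e-23) and 2.16 ± 0.08 with H2O2 (edgeR adjusted p = 1.07e-20). All 9 other annotated Jag2 transcripts, which can share reads with the counted one, were higher in TβRII-/- cells in both media.

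Dll1 (chr17:15367354-15376932), a Delta-like ligand, was low in TβRIIflox/flox cells, with 31.6, 31.2 and 23.7 normalized counts when untreated and 48.7, 67.1 and 60.7 with H2O2. TβRII-/- libraries had 229.0, 219.8 and 217.3 when untreated and 333.2, 331.0 and 379.9 with H2O2. The genotypes stood apart in both media, by 2.94 ± 0.16 (edgeR adjusted p = 3.81e-17) and 2.56 ± 0.13 on the log2 scale (edgeR adjusted p = 6.74e-18). Fam120b, which lies on the opposite strand and shares 1228 of the 4069 bases of the Dll1 transcript, had 553 to 634 counts in untreated TβRIIflox/flox and 745 to 857 in untreated TβRII-/- libraries. Whether the counting used the strand is not given in the sources used here; without it, reads of the 2 genes in the shared bases cannot be told apart. The same holds for the antisense RNAs annotated over 1996 of 9488 bases of Notch1, 804 of 8083 of Notch3, 616 of 3842 of Dll4 and 72 of 5744 of Jag1, while Jag2, Hes1 and Lfng had no overlapping gene in that annotation (GENCODE M39). The 5 other annotated Dll1 transcripts were all higher in TβRII-/- cells.

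Dll4 (chr2:119325784-119335666), the Delta-like ligand of endothelial tip cells, had only 1, 0 and 1 raw counts in untreated TβRIIflox/flox, 2, 1 and 1 in untreated TβRII-/-, 2, 2 and 1 in H2O2-treated TβRIIflox/flox and 9, 6 and 4 in H2O2-treated TβRII-/- libraries. It was not tested across genes. The ratio of TβRII-/- to TβRIIflox/flox with H2O2, scaled by library size, was 3.20 (95% interval 1.15 to 10.9, exact, counting error only), and that of H2O2-treated to untreated TβRII-/- cells was 4.29 (1.43 to 17.3). Both intervals cover counting error alone, since PCR reads are not independent molecules. The endothelial markers Pecam1, Tie1 and Emcn had at most 3 counts in every library, while the list's sum, most of it Kdr, ranged from 131.2 to 143.5 in untreated TβRIIflox/flox and from 482.1 to 605.5 in untreated TβRII-/- cells, and from 54.3 to 74.6 in the H2O2-treated TβRII-/- libraries, where Dll4 was highest.

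Per transcript length, Jag1 made up 96.0% ± 0.5 (SD, n = 3) of ligand counts per kb in untreated TβRIIflox/flox cells and 46.7% ± 1.9 in untreated TβRII-/- cells. Jag2 accounted for 3.36% ± 0.50 in the former and 44.7% ± 1.8 in the latter, and Dll1 for 0.583% ± 0.045 and 8.60% ± 0.22. Among these 4 ligands Jag1 thus made up nearly all in TβRIIflox/flox cells, whereas in untreated TβRII-/- cells Jag1 and Jag2 were close, with overlapping ranges of 45.4% to 48.8% and 42.6% to 46.1%. Summed over the 4 ligands, the level per kb was 1214 ± 162 in untreated TβRIIflox/flox and 635.0 ± 32.9 in untreated TβRII-/- cells, without overlap of the libraries. With H2O2 the sums were 1141 ± 48 and 636.7 ± 26.2. The noncanonical ligand Dlk2, not in these sums, averaged 95.6 per kb in untreated TβRIIflox/flox cells, above Jag2 at 40.6, and 251.4 in untreated TβRII-/- cells, where Jag2 had 283.8.

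**Figure D2:**
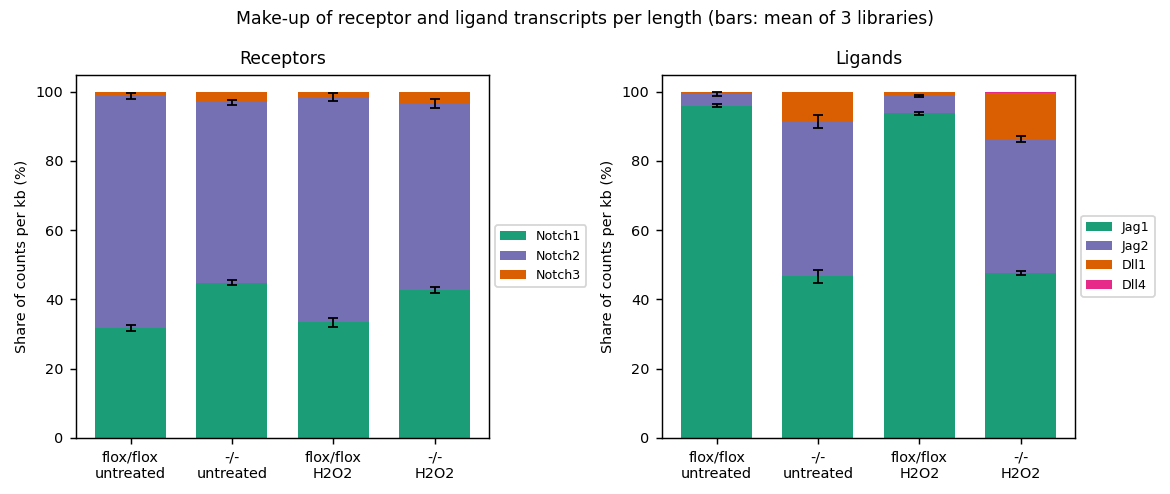
Share of each receptor (left) and ligand (right) in the summed counts per kb of its class, as stacked bars (vertical axis, percent) of the mean of 3 libraries in each group; whiskers are the SD of the gene whose segment ends there, drawn for the lower 2 segments. Jag1 fills 96.0% of the ligand bar in untreated TβRIIflox/flox cells and 46.7% in untreated TβRII-/- cells.

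Lfng (chr5:140607341-140615545), the fringe enzyme, had 4102, 4018 and 3251 normalized counts in untreated TβRIIflox/flox and 1143, 1153 and 1030 in untreated TβRII-/- libraries. With H2O2 it had 4525, 4610 and 4702 in TβRIIflox/flox and 682.2, 668.3 and 731.9 in TβRII-/- libraries. All TβRII-/- libraries were below all TβRIIflox/flox libraries, and the gap was wider with H2O2. The log2 fold change between genotypes was -1.77 ± 0.07 untreated (edgeR adjusted p = 2.94e-20) and -2.73 ± 0.08 with H2O2 (edgeR adjusted p = 6.13e-25), a 6.65-fold fall in the latter. Both other annotated Lfng transcripts were lower in TβRII-/- cells as well.

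Nrarp (chr2:25180758-25183339), a target of Notch that feeds back on the pathway by binding the nuclear complex, was the gene of the 9 with the largest change. Untreated TβRIIflox/flox libraries had 9.47, 4.45 and 6.45 normalized counts and untreated TβRII-/- libraries 187.2, 180.1 and 176.1. With H2O2 they had 9.13, 12.4 and 10.3 against 166.2, 134.4 and 141.2. The genotypes were far apart in both media, by 4.70 ± 0.23 (edgeR adjusted p = 3.09e-18) and 3.78 ± 0.21 on the log2 scale (edgeR adjusted p = 1.62e-16). An annotated antisense RNA, Gm38287, covers 2051 of the 2582 bases of the Nrarp transcript, and no count of its own was used here, so without strand in the counting its reads cannot be told apart from those of Nrarp.

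Hes1 (chr16:30065357-30067796), a widely used readout of Notch activity, which also answers to other pathways, moved little. It had 433.4, 464.0 and 456.0 normalized counts in untreated TβRIIflox/flox and 352.4, 343.7 and 361.8 in untreated TβRII-/- libraries. These did not overlap, and Hes1 fell by 0.35 ± 0.08 on the log2 scale (edgeR adjusted p = 0.00025). With H2O2, TβRIIflox/flox libraries had 483.9, 415.3 and 428.6 and TβRII-/- libraries 426.5, 419.1 and 412.7. The groups then overlapped, with a log2 fold change of -0.08 and a 95% interval from -0.24 to 0.08 (edgeR adjusted p = 0.380).

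Thus the 2 targets moved in opposite directions in untreated TβRII-/- cells, Nrarp upward and Hes1 downward. The genes whose log2 levels followed Hes1 most closely over the 12 libraries were Lix1l (Pearson r = 0.955), Isoc1 (r = 0.947) and Map1lc3b (r = 0.945). Those closest to Nrarp were N4bp1 (r = 0.996), Adgre5 (r = 0.996) and Crybg1 (r = 0.995). These are descriptions over libraries that share 4 groups. At an r of 0.9 or more stood 27 genes with Hes1 and 1621 with Nrarp.

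The proximal promoters of Nrarp and Lfng, the genes of the 10 with the largest rise and the largest fall with H2O2 between the genotypes, are shown for context. They come from RefSeq (GRCm38.p6), where 9 of the 10 genes had a window. Capitals mark 3 motifs searched on both strands: the RBPJ core TGGGAA, whose other strand reads TTCCCA, the palindromic E box CACGTG, which Hes and Hey proteins as well as other factors can bind, and the SMAD element CAGAC, read as GTCTG from the other strand. Nrarp is on the plus strand, and its window is chr2:25180508-25180757. The Lfng window, also on the plus strand, is chr5:140607091-140607319, and the last bases before its RefSeq start were left out because they lie in the counted transcript.
Nrarp: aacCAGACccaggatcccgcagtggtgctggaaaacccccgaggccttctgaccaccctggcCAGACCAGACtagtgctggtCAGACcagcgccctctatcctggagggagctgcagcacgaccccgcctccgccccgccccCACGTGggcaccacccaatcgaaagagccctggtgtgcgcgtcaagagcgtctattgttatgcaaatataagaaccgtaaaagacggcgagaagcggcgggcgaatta
Lfng: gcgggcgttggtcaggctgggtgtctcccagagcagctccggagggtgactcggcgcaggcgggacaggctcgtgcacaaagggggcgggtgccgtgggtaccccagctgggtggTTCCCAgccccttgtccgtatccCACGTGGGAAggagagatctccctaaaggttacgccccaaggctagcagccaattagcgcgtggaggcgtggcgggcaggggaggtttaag

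In the Nrarp window the SMAD element CAGAC stood at 4 positions, beginning at -247, -188, -183 and -168 from the start of the gene, and the E box at -108. The Lfng window held the RBPJ core at -135 and -108, and the latter overlapped an E box beginning at -112. Of 32851 windows of 250 bases before gene starts in the same source, 21.6% held the RBPJ core, 6.02% the E box and 42.2% the SMAD element. A match of letters is a description and not a binding site. The GC content was 61.2% for Nrarp and 66.4% for Lfng, against a median of 52.4% over all windows.

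The next question was what H2O2 in serum-free medium changed within each genotype. In TβRIIflox/flox cells 6 of the 9 genes tested rose (all 3 receptors, Jag2, Dll1 and Lfng), 0 fell by edgeR or by DESeq2, and 3 were not called. Over all genes, 21.0% rose and 20.5% fell. At an unadjusted p under 0.05, 0 of the 9 fell. In TβRII-/- cells 4 rose (Notch2, Notch3, Dll1 and Hes1) and 2 fell (Jag2 and Lfng), against 20.5% of all genes higher and 19.1% lower. These comparisons share libraries with the genotype comparisons, so they are not independent of them.

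Dll1 rose in both genotypes, 2.04-fold in TβRIIflox/flox (log2 fold change 1.03 ± 0.20, edgeR adjusted p = 0.000106) and 1.57-fold in TβRII-/- cells (0.65 ± 0.10, edgeR adjusted p = 7.60e-06). In each genotype all 3 treated libraries were above all 3 untreated ones. Its share of ligand counts per kb was 13.4% ± 0.6 in H2O2-treated TβRII-/- cells and 1.27% ± 0.21 in H2O2-treated TβRIIflox/flox cells.

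The receptors rose in TβRIIflox/flox cells by 0.56 ± 0.09 (Notch1, edgeR adjusted p = 5.90e-06), 0.46 ± 0.08 (Notch2, edgeR adjusted p = 1.41e-05) and 0.69 ± 0.12 (Notch3, edgeR adjusted p = 4.04e-05) on the log2 scale. Treated and untreated TβRIIflox/flox libraries did not overlap for any receptor, and their summed level per kb was 1823 ± 119 with H2O2 against 1294 ± 197 without. In TβRII-/- cells the differences were smaller in value. Notch2 rose by 0.25 ± 0.08 (edgeR adjusted p = 0.0106) and Notch3 by 0.34 ± 0.10 (edgeR adjusted p = 0.00583), while Notch1 differed by 0.13 ± 0.09 (95% interval -0.05 to 0.30, edgeR adjusted p = 0.266). The Notch2 call was lost without replicate 3 of untreated TβRII-/- (edgeR adjusted p = 0.0546) or of treated TβRII-/- cells (0.0803), over a range of 0.00056 to 0.0803 among all alternatives. The Notch3 call was lost without replicate 1 of treated TβRII-/- cells (edgeR adjusted p = 0.0831, range 0.00116 to 0.0831) and with counts summed over transcripts (0.0681).

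Jag1 did not pass the test in either genotype, with a log2 fold change of -0.12 (95% interval -0.27 to 0.02, edgeR adjusted p = 0.174) in TβRIIflox/flox and 0.04 (-0.12 to 0.19, edgeR adjusted p = 0.741) in TβRII-/- cells. Without replicate 3 of untreated TβRIIflox/flox cells, its lowest library, Jag1 fell by 0.21 (edgeR adjusted p = 0.0113, range 0.0113 to 0.951 among the alternatives). Jag2 rose by 0.44 ± 0.10 in TβRIIflox/flox (edgeR adjusted p = 0.000952) and fell by 0.21 ± 0.07 in TβRII-/- cells (edgeR adjusted p = 0.0221), each without overlap. The fall in TβRII-/- cells was lost without replicate 1 of the untreated libraries (edgeR adjusted p = 0.154), without replicate 1 (0.0543) or 2 (0.0738) of the treated ones, and with counts summed over transcripts (0.0873), over a range of 0.0015 to 0.154.

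Lfng rose by 0.28 ± 0.07 in TβRIIflox/flox cells (edgeR adjusted p = 0.00113) and fell by 0.68 ± 0.08 in TβRII-/- cells (edgeR adjusted p = 2.22e-08). Treated and untreated libraries did not overlap in either genotype. Hes1 rose in TβRII-/- cells by 0.25 ± 0.08 (edgeR adjusted p = 0.0118), where all treated libraries were above the untreated ones, and differed by -0.03 (95% interval -0.19 to 0.13, edgeR adjusted p = 0.819) in TβRIIflox/flox cells. Nrarp differed by 0.63 ± 0.41 in TβRIIflox/flox (edgeR adjusted p = 0.227) and by -0.30 ± 0.13 in TβRII-/- cells (edgeR adjusted p = 0.0608), where treated libraries lay below untreated ones. The latter passed without replicate 1 of the treated TβRII-/- libraries (edgeR adjusted p = 0.0390) and in a fit of only these 2 groups (0.0244), over a range of 0.0244 to 0.228.

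**Figure D3:**
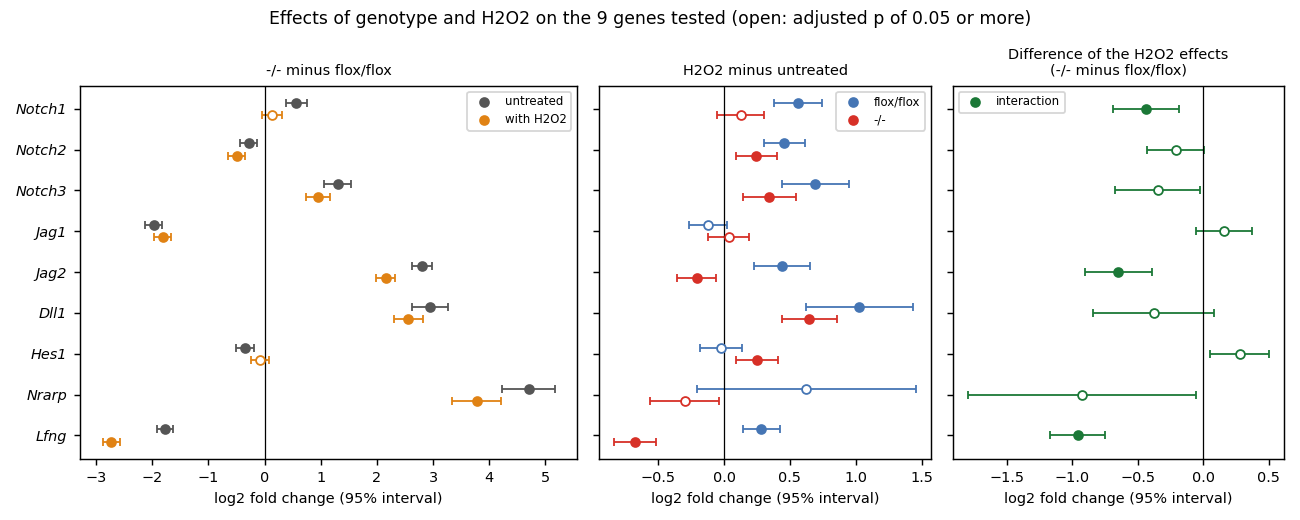
Log2 fold change (horizontal axes, log2 scale) of each of the 9 genes tested, with 95% intervals: TβRII-/- minus TβRIIflox/flox in each medium (left), H2O2 minus untreated in each genotype (middle) and the difference between the H2O2 effects of the genotypes (right). Filled points have an edgeR adjusted p under 0.05; in the right panel these are Notch1, Jag2 and Lfng, all below 0.

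Whether H2O2 acted differently in the genotypes was tested by the interaction term, the log2 fold change with H2O2 in TβRII-/- minus that in TβRIIflox/flox cells. Lfng differed most firmly, by -0.96 ± 0.10 (edgeR adjusted p = 1.29e-07), since it rose in TβRIIflox/flox and fell in TβRII-/- cells. Jag2 differed by -0.65 ± 0.13 (edgeR adjusted p = 0.000863), again with opposite directions. Notch1 differed by -0.44 ± 0.12 (edgeR adjusted p = 0.0203). Thus 3 of the 9 genes were called lower and 0 higher by edgeR, where 6.28% of all genes were lower and 3.90% higher. DESeq2 called 2 lower and 0 higher, and at an unadjusted p under 0.05 edgeR had 5 lower (Notch3 and Nrarp in addition) and 1 higher (Hes1).

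The Notch1 call depended on single libraries and on the tool. It was lost with DESeq2 (adjusted p = 0.123), with counts summed over transcripts (edgeR adjusted p = 0.0713) and without replicate 2 of treated TβRIIflox/flox (0.0690), replicate 1 of untreated TβRII-/- (0.0673) or replicate 2 of treated TβRII-/- cells (0.0686), over a range of 0.000119 to 0.123. Notch2 (-0.21 ± 0.11, edgeR adjusted p = 0.230) was not called, but passed without replicate 1 of untreated TβRIIflox/flox cells (edgeR adjusted p = 0.0129, range 0.0129 to 0.444). Hes1 (0.28 ± 0.11, edgeR adjusted p = 0.113) had a 95% interval from 0.05 to 0.50 before adjustment, and Nrarp (-0.93 ± 0.43, edgeR adjusted p = 0.178) had the widest interval, from -1.80 to -0.05. Notch3 (-0.35), Jag1 (0.16) and Dll1 (-0.38) were not called either.

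Around these genes, 56 other genes of the pathway were listed, of which 46 could be tested. In untreated TβRII-/- against TβRIIflox/flox cells 14 rose, 16 fell and 16 were not called; with H2O2 18 rose, 18 fell and 10 were not called. Over all genes tested, 33.3% rose and 31.4% fell untreated and 35.1% rose and 31.3% fell with H2O2, so the counts of pathway genes were near the background. Their median absolute log2 fold change untreated was 0.34, the same as over all genes. The directions were mixed within most roles. Of 9 genes of receptor cleavage 2 rose and 6 fell in untreated TβRII-/- cells, and of 8 genes of the nuclear complex 2 rose and 2 fell.

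Among ligand partners, Neurl1b, a ubiquitin ligase that drives endocytosis of Notch ligands, was higher in TβRII-/- cells by 2.75 ± 0.10 untreated (edgeR adjusted p = 1.88e-21) and 2.67 ± 0.09 with H2O2 (edgeR adjusted p = 1.58e-22). Mfap2, a microfibril protein that can bind Jagged and Notch, was 11.5-fold lower in untreated (95% interval 5.33 to 29.7, counting error only) and 28.1-fold lower in H2O2-treated TβRII-/- cells (12.6 to 78.0). It passed the test in both (edgeR adjusted p = 4.30e-08 and 4.53e-12).

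Of the genes acting on the receptor, Furin, the protease that matures it, fell by 0.87 ± 0.07 untreated (edgeR adjusted p = 3.60e-12) and 0.93 ± 0.07 with H2O2 (edgeR adjusted p = 6.07e-13). The γ-secretase subunit Aph1b rose by 1.63 ± 0.20 untreated (edgeR adjusted p = 2.74e-08), and Psen2, a catalytic subunit, fell by 0.88 ± 0.15 with H2O2 (edgeR adjusted p = 5.14e-06). Dtx1, a Deltex protein that regulates Notch, had 0 counts in the 3 untreated TβRIIflox/flox libraries together and 44 in the 3 untreated TβRII-/- libraries, at least 4.90-fold higher against a floor of 3 counts per library (edgeR adjusted p = 2.11e-06). With H2O2 it had 2 and 45 counts, a ratio of 18.9 (95% interval 4.94 to 161, counting error only; edgeR adjusted p = 2.49e-05).

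In the nucleus, the coactivators of the Mastermind-like family moved in different directions. Maml2 had a log2 fold change between genotypes of -0.85 ± 0.13 untreated (edgeR adjusted p = 7.69e-07) and -0.54 ± 0.11 with H2O2 (edgeR adjusted p = 0.000138). Maml3 rose by 1.59 ± 0.16 untreated (edgeR adjusted p = 3.67e-10) and 1.85 ± 0.14 with H2O2 (edgeR adjusted p = 1.81e-13). Maml1, named after its values were seen, fell by 0.51 ± 0.07 untreated (edgeR adjusted p = 1.89e-07) and 0.39 ± 0.07 with H2O2 (edgeR adjusted p = 1.76e-05). Rbpj, the DNA-binding partner, had means of 327.0 and 386.8 normalized counts in untreated TβRIIflox/flox and TβRII-/- cells. Of the other Hes and Hey genes, listed here as targets, Hey1, Hey2 and Hes6 were tested. They did not pass between the genotypes in either medium, also at an unadjusted p under 0.05. Whether each answers to Notch in these cells was not tested. Hey1 and Hey2 were low, with means of 18.8 and 42.7 normalized counts in untreated TβRIIflox/flox cells, against 458.8 for Hes6. Dtx1, given above, was listed under receptor turnover and not as a target. The untreated log2 fold changes of Hey1, Hey2 and Hes6 were -0.12 (95% interval -0.95 to 0.71), -0.25 (-0.77 to 0.27) and 0.09 (-0.08 to 0.26). Hes5 had 0 counts in every library, which allows up to 3 counts in each, and Hes7 and Heyl averaged under 10 normalized counts in every group.

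**Figure D4:**
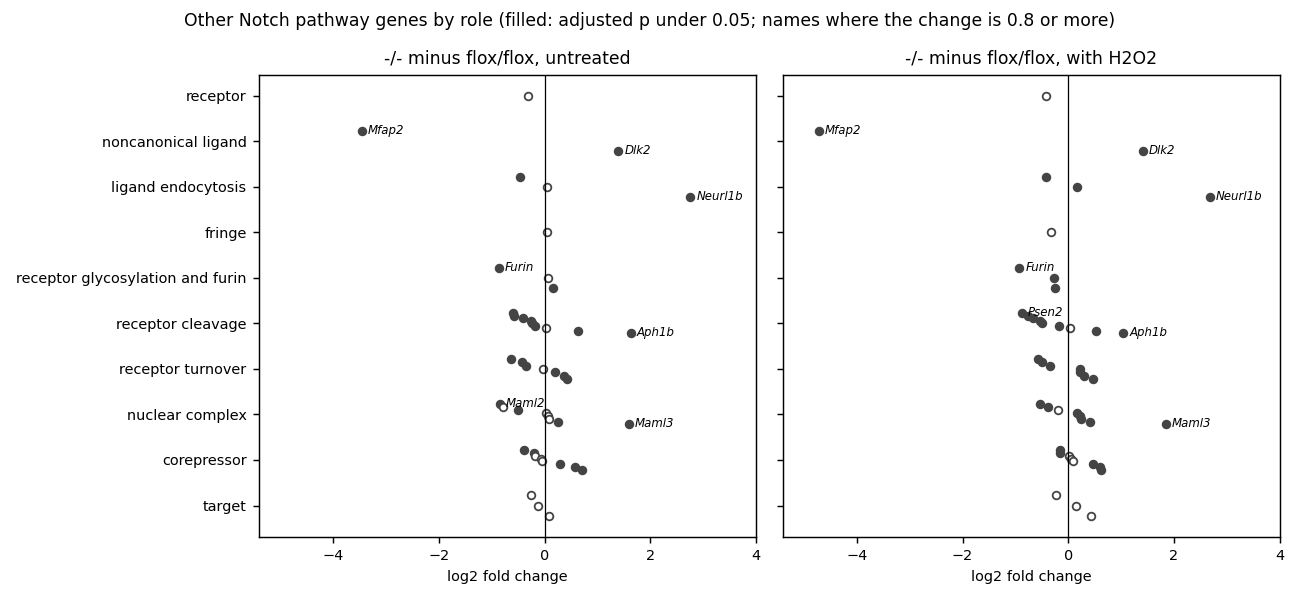
Log2 fold change of TβRII-/- minus TβRIIflox/flox PT cells (horizontal axes, log2 scale), untreated (left) and with H2O2 (right), for the other Notch pathway genes tested, in rows by role; Dtx1 is left out because 0 or 2 counts in TβRIIflox/flox cells leave its fold change without a firm value. Filled points passed the test; Neurl1b at 2.75 and 2.67 lies farthest to the right and Mfap2 farthest to the left.

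H2O2 raised 16 and lowered 7 of the 46 other genes in TβRIIflox/flox cells and raised 10 and lowered 5 in TβRII-/- cells. The shares over all genes were 21.0% higher and 20.5% lower in the former and 20.5% and 19.1% in the latter. Dlk2, a noncanonical ligand, fell in both, by 1.52 ± 0.15 (edgeR adjusted p = 1.39e-09) and 1.51 ± 0.11 (edgeR adjusted p = 1.80e-12) on the log2 scale. In TβRIIflox/flox cells Mfap2 rose by 0.91 ± 0.25 (edgeR adjusted p = 0.0037), Neurl1b by 0.66 ± 0.13 (edgeR adjusted p = 8.84e-05) and Aph1b by 0.70 ± 0.23 (edgeR adjusted p = 0.0151), the last not without replicate 2 of the treated libraries (edgeR adjusted p = 0.0676, range 0.00545 to 0.0676). Dtx4, another Deltex protein, fell by 0.73 ± 0.06 (edgeR adjusted p = 5.59e-12). Neurl1b also rose in TβRII-/- cells, by 0.58 (edgeR adjusted p = 1.51e-07). Dtx4 also fell there, by 0.40 (edgeR adjusted p = 9.48e-07). Mfap2 and Aph1b were not called in TβRII-/- cells (edgeR adjusted p = 0.7496 and 0.6165). In TβRII-/- cells Maml3 rose by 0.89 ± 0.12 (edgeR adjusted p = 6.44e-07), Maml2 by 0.65 ± 0.13 (edgeR adjusted p = 0.000141) and Dtx3, of the Deltex family too, by 0.59 ± 0.08 (edgeR adjusted p = 4.58e-07). The same genes also rose in TβRIIflox/flox cells, Maml3 by 0.64 (edgeR adjusted p = 0.00577), Maml2 by 0.33 (0.0200) and Dtx3 by 0.51 (4.00e-06). Genes were placed under a genotype by the 1.5-fold and top-3 cuts for naming, and not by a test between the genotypes.

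The H2O2 effect differed between genotypes for 4 of the 46, with 1 higher and 3 lower. Over all genes 3.90% were higher and 6.28% lower, so this count was near the background. Of the 4, 3 are given here, named after their values were seen. Dtx4 differed by 0.33 (edgeR adjusted p = 0.0067). The glycosyltransferases Pofut1 and Poglut1, which modify the receptor before fringe enzymes can act, differed by -0.32 (edgeR adjusted p = 0.0311) and -0.42 (edgeR adjusted p = 0.00192). The count fell to 2 without replicate 3 of untreated TβRIIflox/flox, replicate 1 or 2 of untreated TβRII-/- or replicate 2 of treated TβRII-/- cells.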

How the data were processed

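RNA of 12 libraries (4 groups of 3, replicate numbers from the labels) was sequenced by the authors after stranded mRNA library preparation. The authors trimmed reads with fastp, aligned them by STAR to the GRCm38.p6 genome with GENCODE M23 models, and used featureCounts for counting; the methods describe gene-level counts, but the deposited tables hold whole-number counts for 106332 Ensembl transcripts, and reads were counted on several transcripts of a gene. Of these, 104820 were matched by identifier to GENCODE M39, and the transcript with the highest total stood for each gene (25514 genes). Transcripts not matched held 1.22% to 1.28% of the counts. Gene coordinates and promoters came from RefSeq tables of the same build.

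edgeR 4.0.16 (R 4.3.3) was used with TMM scaling, filterByExpr and a mean per group over all 12 libraries; 5 contrasts were tested by the quasi-likelihood F test with Benjamini-Hochberg adjustment over 12971 genes. The script was tested on simulated data. SEs were derived from the F statistic, and intervals cover 95%. Alternatives were DESeq2 1.42.0, its size factors in edgeR, no filter, at least 10 counts in every library, a replicate block, only the groups compared, sums over transcripts and each library left out.

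Same-numbered libraries did not deviate together (0 of 18 pairs had an r over 0.1), so the numbers were not taken as pairs. The members and lists were chosen with earlier results of these data known. Other pathway genes were named when they passed an adjusted p of 0.05, a fold of 1.5 and a mean of 10 normalized counts in a group compared, at most 3 in each direction, and the 3 genes closest in pattern were named for Hes1 and Nrarp. Of the 4 pathway genes called in the interaction, 1 is not reported here. Depth limits the precision of Dll4, Dtx1 and Mfap2, which are given with counting intervals; this precision covers counting error only. Of the remaining marker lists, 6 of 8 genes of the loop, distal tubule and collecting duct list, 2 of 6 leukocyte and 2 of 4 podocyte genes had at most 3 counts in every library, and of 7 renal epithelial genes none did. The leukocyte list summed to between 138.7 and 146.9 normalized counts in untreated TβRIIflox/flox and between 236.3 and 252.7 in untreated TβRII-/- libraries. Most of this sum was Cd68, with 126.9 to 142.0 in the former and 224.8 to 247.0 in the latter. Itgam went the other way, with up to 9.68 in the former and 0 in the latter.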

Additional observations from a re-analysis of the deposited data

Results flagged for a closer look

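For 3 genes the effect of H2O2 differed between the genotypes by edgeR's test of the interaction term. On the log2 scale the effect in TβRII-/- minus that in TβRIIflox/flox PT cells was -0.96 for Lfng, which moved in opposite directions in all 3 libraries of each genotype relative to the untreated ones. It was -0.65 for Jag2, also with opposite directions. For Notch1 it was -0.44, where H2O2 raised the gene in TβRIIflox/flox cells and the TβRII-/- libraries overlapped.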

How the results depend on the processing

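Among 891 alternative values of single genes, 873 kept their direction and their side of the threshold, 14 lost their call and 4 gained one; none reversed. Of 210 alternative counts of called genes 203 were within 1.5 times the count reported. The exceptions concerned the interaction: the other pathway genes called were 4, but 2 with counts summed over transcripts and 2 to 5 when single libraries were left out; all genes called were 1321, with 833 without replicate 1 of H2O2-treated TβRII-/- cells, 878 without replicate 2 of that group, and a range of 833 to 1680 over all libraries left out. Members called with H2O2 in TβRII-/- cells numbered 4 to 7 and in the interaction 2 to 4 over all alternatives. The replicate numbers share nothing known; 2 of 12 libraries correlated best with their own number. With the replicate number as a block the members called were 9, 7, 6, 6 and 3 in the 5 comparisons, as without it, and the pathway genes called in the interaction 3. DESeq2's size factors moved the median of all genes by at most 0.0129 upward and 0.0156 downward on the log2 scale. Depth limited Dll4, with at most 9 counts in a library.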
